A study of Homo sapiens with 6 samples.

Results

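Translation initiation and elongation factors are the soluble proteins that bring messenger RNA, initiator tRNA and the ribosomal subunits together and then carry the ribosome along the coding sequence. Their transcripts were followed in Jurkat cells, an established human T lymphocyte line derived from a leukaemia, after exposure to bisphenol AF (BPAF), a relative of bisphenol A in which fluorine replaces hydrogen. The genes were those with a symbol that begins with EIF1 to EIF6, EEF1 or EEF2 and a protein-coding annotation. The eIF2alpha kinases EIF2AK1 to EIF2AK4, the Y-linked EIF1AY and read-through genes were left out. Of 233 symbols with such a beginning, 71 were protein coding and 7 of these were left out, which gave 64 genes of the 60856 features in the table.

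All 6 libraries came from wild-type Jurkat cells. The control group held 3 libraries of cells given the vehicle dimethyl sulfoxide at 0.1% (DMSO), and the exposed group held 3 libraries of cells given 1 µM BPAF. The sample labels give an exposure of 12 h and the treatment protocol gives 24 h, so the time is uncertain. The replicates are described as biological, although nothing says how the cultures were separated, so p-values measure the spread between these libraries. Jurkat cells are a single transformed line, and in bulk RNA a lower level per cell cannot be told apart from fewer cells carrying the transcript.

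Initiation starts when eIF2 carries the initiator tRNA to the small ribosomal subunit, where eIF1, eIF1A, eIF3 and eIF5 assemble. The eIF4 factors bind the cap and unwind the leader of the messenger, the complex scans to a start codon, and eIF5B joins the large subunit. In elongation, eEF1A delivers aminoacyl tRNA and eEF2 moves the ribosome by one codon. Several of these factors, together with the ribosomal proteins, are encoded by messengers that begin with a C followed by a run of pyrimidines (a terminal oligopyrimidine tract), through which growth signals in lymphocytes and other cells control their translation.

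Sequenced depth was similar in both groups, with 20253656 to 22617613 counts per library. A count above 0 was found for 22637 to 23047 genes in DMSO and 23325 to 23711 in BPAF, so the BPAF libraries held more detected genes without overlap. All 10 T-cell markers were above 1 TPM (a transcript level scaled for gene length) in every library, 0 of them passed the test, and they summed to 3098 to 3246 TPM in DMSO and 3227 to 3307 TPM in BPAF. Of 18 markers of B, myeloid, epithelial, fibroblast and erythroid cells, 12 were under 1 TPM in all libraries, 4 of them at 0, and 0 passed the test. They summed to 136 to 145 TPM in DMSO and 116 to 154 TPM in BPAF. Of the 5 above 1 TPM in all libraries, the globin genes HBA1, HBB and HBA2 and the B-cell gene CD79A, with medians of 44.9, 40.9, 26.5 and 22.8 TPM, made up most of the sum, and COL1A1 was at 1.48 TPM.

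The starts of the genes are shown first, because the transcripts that fell include several with a pyrimidine tract at the annotated start. RefSeq (GRCh38.p14) gave a start for 51 of the 64 genes. Each line below holds 10 bases before and 20 bases after the start on the transcribed strand, and capitals mark an unbroken run of at least 5 pyrimidines that begins within 5 bases of the start. The first 5 lines are genes that fell and carry a tract.
EEF1A1 (chr6:73521013-73521042, minus strand): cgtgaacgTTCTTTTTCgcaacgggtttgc
EEF1B2 (chr2:206159885-206159914, plus strand): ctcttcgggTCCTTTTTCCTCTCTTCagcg
EIF2A (chr3:150546777-150546806, plus strand): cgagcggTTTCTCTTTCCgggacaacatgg
EIF4A2 (chr3:186783567-186783596, plus strand): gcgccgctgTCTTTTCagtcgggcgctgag
EIF3M (chr11:32583821-32583850, plus strand): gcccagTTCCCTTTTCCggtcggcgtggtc

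A tract of the same kind also stands at the start of genes that did not pass the test, of which the following 4 are shown for comparison.
EEF2 (chr19:3985444-3985473, minus strand): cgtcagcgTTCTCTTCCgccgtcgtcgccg
EIF3D (chr22:36529147-36529176, minus strand): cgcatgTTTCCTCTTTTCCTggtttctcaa
EIF3F (chr11:7987327-7987356, plus strand): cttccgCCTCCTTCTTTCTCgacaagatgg
EIF4B (chr12:53006446-53006475, plus strand): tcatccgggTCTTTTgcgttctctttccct

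Other genes fell without a C and 4 further pyrimidines at their first annotated base, as the next 4 windows show.
EIF1 (chr17:41688875-41688904, plus strand): ccgcccctctgccccagtcactgagccgcc
EIF3J (chr15:44537137-44537166, plus strand): ccgccgtgctaaCTCCTCgctagctctccc
EEF1E1 (chr6:8102529-8102558, minus strand): tgcaggtctcgcgtctgccaggagctacgg
EIF4E (chr4:98929114-98929143, minus strand): tggagcggttgtgcgatcagatcgatctaa

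Of the 64 genes, 62 had enough counts to be tested, and 11 of them fell in BPAF while 0 rose (edgeR quasi-likelihood test, Benjamini-Hochberg adjustment over all 15490 tested genes, adjusted p under 0.05). That is 17.7% of the tested factors, against a background of 3.4% of all tested genes called lower. The background of genes called higher was 2.65%, and 6.06% of all tested genes were called in either direction. The falls were small, with log2 fold changes from -0.11 (EIF3L) to -0.25 (EIF4A2). They were spread over start codon selection (EIF1), initiator tRNA delivery (EIF2A), eIF3 (EIF3E, EIF3J, EIF3L and EIF3M), the cap complex (EIF4E and EIF4A2) and elongation (EEF1A1, EEF1B2 and EEF1E1).

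Most of the factors are abundant, and calls were more frequent among abundant genes in general. In an abundance range chosen after the values were seen, at or above the least abundant of the 11 (54.0 CPM, which are counts brought to the same sum in each library), 46 factors were tested and 23.9% of them fell, against a background of 8.76% lower and 3.39% higher. Before adjustment, 23 of the 62 had a p under 0.05 with a lower level and 0 with a higher level, where the backgrounds were 10.5% and 9.36%. A log2 fold change below 0 was found for 47 of the 62 (75.8%) and for 49.2% of all tested genes. The median log2 fold change was -0.039 over the 62 factors and 0.0019 over all tested genes. Abundant genes in general lay lower, with a median of -0.022 over the 4691 tested genes of the abundance range above. The 3 BPAF libraries all lay below the 3 DMSO libraries for 24 factors and all above for 1, with backgrounds of 12.8% and 12% (CPM scaled by TMM, a correction for library composition).

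**Figure D1:**
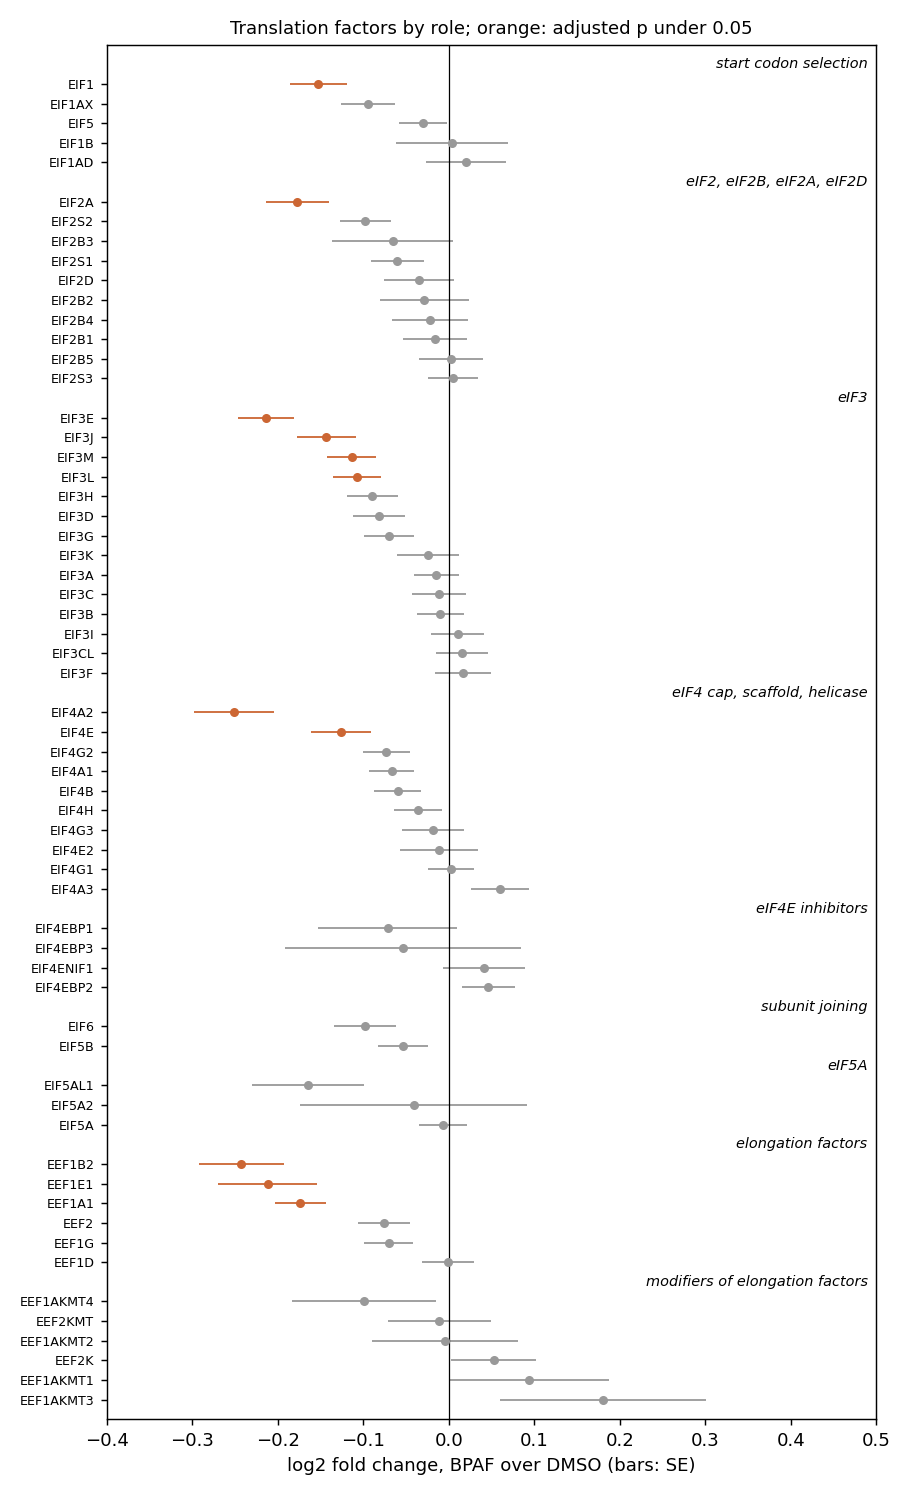
Log2 fold change of BPAF over DMSO (x axis, edgeR, bars are SE) for 60 of the 62 tested factors, grouped by role, with orange for an adjusted p under 0.05. EEF1A2 and EIF4E3, both under 2 CPM, are not drawn. The 11 orange points all lie left of 0, and 4 of them are subunits of eIF3.

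Among the 5 factors of start codon selection, 1 fell and the median log2 fold change was -0.03. EIF1, which keeps the scanning complex from settling on a wrong start codon (ENSG00000173812, GRCh38 chromosome 17, 41688885 to 41692668), was at 376, 364 and 379 CPM in the DMSO libraries and at 325, 354 and 327 CPM in the BPAF libraries. All BPAF values were lower, with BPAF replicate 2 nearest to the controls. The log2 fold change was -0.15 ± 0.03 (SE, adjusted p = 0.00914 in edgeR). EIF1AX, its partner in scanning, went from 138.7 ± 0.30 CPM in DMSO to 129.9 ± 0.91 with BPAF (SD, n = 3), groups that did not overlap, with an adjusted p of 0.0883 in edgeR. EIF5, which makes eIF2 hydrolyse its GTP, and the EIF1 paralogue EIF1B had log2 fold changes of -0.03 and 0.0037.

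The group of eIF2, its exchange factor eIF2B and the alternative carriers of initiator tRNA held 11 genes, of which 10 were tested and 1 fell (median log2 fold change -0.03). That gene was EIF2A, a single protein distinct from the alpha subunit of eIF2 that can bring initiator tRNA to the ribosome (ENSG00000144895, chromosome 3, 150546678 to 150584242). It was at 124.0, 122.9 and 129.5 CPM in DMSO and at 110.5, 108.2 and 114.2 CPM in BPAF, so the groups were apart by more than their own ranges. The log2 fold change was -0.18 ± 0.04 (SE, adjusted p = 0.00674 in edgeR).

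The subunits of eIF2 itself did not pass the test. EIF2S1, the alpha subunit whose phosphorylation slows initiation and the most abundant gene of this group with 231 TPM in DMSO, was at 179.5, 174.4 and 181.8 CPM in DMSO and at 171.6, 170.0 and 172.2 CPM in BPAF. The groups did not overlap, the log2 fold change was -0.06 ± 0.03, and the edgeR adjusted p was 0.286. EIF2S2, the beta subunit, had a log2 fold change of -0.10 (adjusted p = 0.0547 in edgeR), and EIF2S3, the gamma subunit, one of 0.0051. The 5 eIF2B genes lay between -0.066 (EIF2B3) and 0.0025 (EIF2B5). The retrogene EIF2S3B had 0 counts in 5 libraries and 1 in BPAF replicate 3, which was too few to test.

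The eIF3 complex, the largest initiation factor and the platform on the small ribosomal subunit, held 4 of the 11 falls. Of its 14 genes, 11 had a log2 fold change below 0, 7 had BPAF libraries all below the DMSO libraries, and the median was -0.047. Among all tested genes, 3.4% were called lower, 49.2% lay below 0 and 12.8% had BPAF libraries all below. In the range at or above 54.0 CPM, 8.76% were called lower and the median was -0.022. EIF3E (ENSG00000104408, chromosome 8, 108201216 to 108435333) had the smallest p of all factors. This subunit was at 435.0, 435.3 and 473.6 CPM in DMSO and at 384.1, 394.2 and 380.1 CPM in BPAF. Its highest BPAF library was below its lowest DMSO library, and the log2 fold change was -0.21 ± 0.03 (SE, adjusted p = 0.000977 in edgeR).

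EIF3J, a loosely held subunit that helps eIF3 bind the small ribosomal subunit (ENSG00000104131, chromosome 15, 44537057 to 44563029), showed the tightest groups, with 113.7, 112.8 and 112.4 CPM in DMSO and 102.6, 102.1 and 102.2 CPM in BPAF. The log2 fold change was -0.14 ± 0.03 (SE, adjusted p = 0.0173 in edgeR). EIF3M (ENSG00000149100, chromosome 11, 32583798 to 32606262) was the most abundant eIF3 gene per length, at 552 TPM in DMSO. It was at 295, 297 and 308 CPM in DMSO and at 276, 278 and 277 CPM in BPAF, a log2 fold change of -0.11 ± 0.03 (SE, adjusted p = 0.0226 in edgeR). EIF3L (ENSG00000100129, chromosome 22, 37848868 to 37889407) went from 316, 323 and 319 CPM to 296, 301 and 292 CPM, a log2 fold change of -0.11 ± 0.03 (SE, adjusted p = 0.0256 in edgeR). In each of these 3 genes every BPAF library was below every DMSO library.

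Other subunits stayed close to the level of the controls. EIF3A, the largest subunit and part of the core, was at 572.5, 567.4 and 572.0 CPM in DMSO and at 572.5, 557.8 and 564.5 CPM in BPAF, groups that overlapped (log2 fold change -0.014). EIF3B, EIF3C, EIF3I and EIF3F had log2 fold changes of -0.01, -0.011, 0.010 and 0.016, with overlapping groups. EIF3H (-0.089), EIF3D (-0.082), which can bind the cap itself, and EIF3G (-0.07) lay between, with groups that did not overlap and adjusted p of 0.0789, 0.126 and 0.174 in edgeR. The ratio of EIF3E to EIF3A, a pair chosen after the values were seen, was 0.785 ± 0.037 in DMSO and 0.684 ± 0.020 in BPAF on the CPM scale (SD, n = 3, no overlap, exact permutation p = 0.1, two-sided, the smallest that 3 against 3 allows). On the TPM scale it was 3.24 ± 0.16 and 2.78 ± 0.13, again without overlap.

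**Figure D2:**
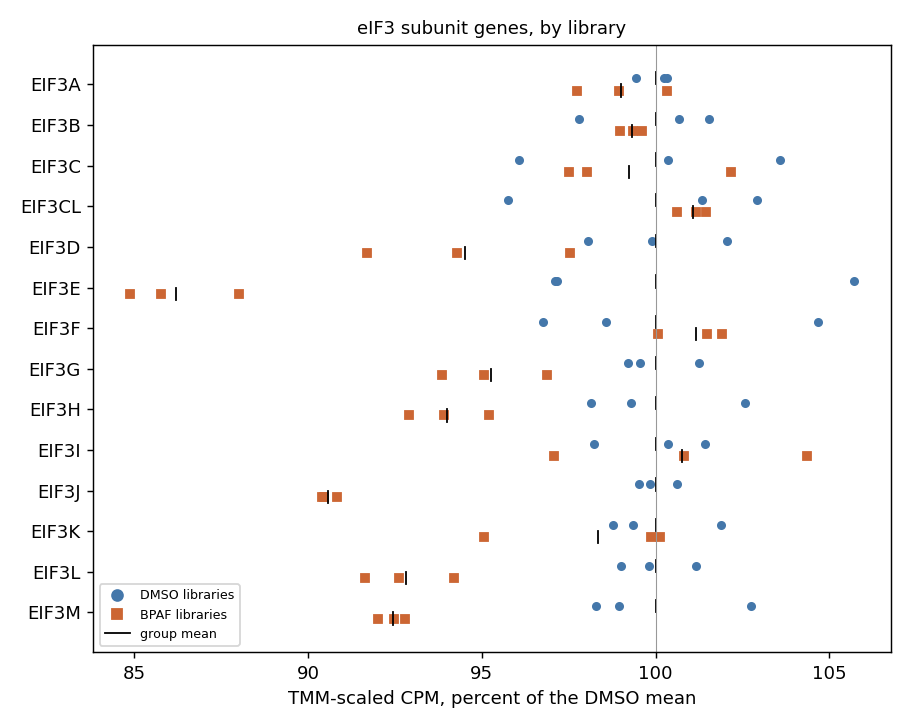
TMM-scaled CPM of the 14 eIF3 genes in each library as percent of the DMSO mean (x axis), with circles for the 3 DMSO libraries, squares for the 3 BPAF libraries and a black bar for each group mean. EIF3E, EIF3J, EIF3L and EIF3M lie left of all control libraries, as do EIF3D, EIF3G and EIF3H by less, while EIF3A, EIF3B, EIF3C, EIF3CL, EIF3F, EIF3I and EIF3K overlap them.

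The near-identical copies EIF3C and EIF3CL can share reads, so each alone is uncertain. Summed, they came to 922 ± 11.8 CPM in DMSO and 921 ± 15.2 CPM in BPAF (SD, n = 3), with overlapping groups.

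Among the 12 genes for cap binding, the eIF4G scaffolds and the eIF4A helicases, 11 were tested and 2 fell (median log2 fold change -0.036). EIF4A2, one of a pair of closely related helicases of the cap complex (ENSG00000156976, chromosome 3, 186783205 to 186789900), had the largest fall of all called factors. It was at 554, 573 and 519 CPM in DMSO and at 460, 489 and 434 CPM in BPAF. The groups were wide but did not overlap, and the log2 fold change was -0.25 ± 0.05 (SE, adjusted p = 0.0140 in edgeR).

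Its paralogue EIF4A1, the more abundant helicase at 1411 TPM in DMSO, was at 1147, 1153 and 1169 CPM in DMSO and at 1104, 1110 and 1097 CPM in BPAF. These groups did not overlap either, with a log2 fold change of -0.067 ± 0.03 and an adjusted p of 0.148 in edgeR. The ratio of EIF4A2 to EIF4A1, a pair chosen after the values were seen, was 0.475 ± 0.027 in DMSO and 0.418 ± 0.023 in BPAF on the CPM scale (SD, n = 3, no overlap, two-sided exact permutation p = 0.1). On the TPM scale the groups overlapped (exact permutation p = 0.2). EIF4A1 shares sequence with the read-through gene SENP3-EIF4A1, and their sum was 1240 ± 12.5 CPM in DMSO and 1167 ± 26.5 CPM in BPAF, without overlap. An antisense gene over EIF4A2 (ENSG00000263826) went from 12.8 ± 0.94 to 7.63 ± 1.33 CPM (log2 fold change -0.75, adjusted p = 0.00117 in edgeR). The sources used here do not give the strand setting of the counting, so reads of EIF4A2 and of this gene may not have been told apart. Summed, they came to 567, 584 and 533 CPM in DMSO and to 467, 499 and 441 CPM in BPAF, without overlap.

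EIF4E, the cap-binding protein itself (ENSG00000151247, chromosome 4, 98871684 to 98930637), was at 120.2, 122.8 and 127.3 CPM in DMSO and at 114.3, 111.6 and 113.4 CPM in BPAF. The groups did not overlap, and the log2 fold change was -0.13 ± 0.04 (SE, adjusted p = 0.0385 in edgeR). This was the weakest of the 11 calls: it was lost with each of the 6 libraries left out, with upper quartile scaling, with protein-coding genes only, in DESeq2 and in limma-voom (adjusted p from 0.0533 to 0.131 over these). The scaffold EIF4G1 was at 690 ± 14.7 CPM in DMSO and 691 ± 0.53 CPM in BPAF. EIF4G2, a related scaffold that does not bind EIF4E, had a log2 fold change of -0.073 with groups that did not overlap (adjusted p = 0.133 in edgeR). EIF4A3, the helicase of the exon junction complex, was the 1 factor whose BPAF libraries were all higher, at 183.9, 197.4 and 181.2 CPM against 180.9, 178.6 and 180.0 CPM, with a log2 fold change of 0.06 (adjusted p = 0.348 in edgeR).

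The germ-cell type cap-binding gene EIF4E1B had 0 counts in every library, which allows at most 3 counts, or 0.133 to 0.148 CPM. EIF4E3 was near 1 CPM in both groups, and its log2 fold change of 0.68 ± 0.41 did not pass (adjusted p = 0.392 in edgeR).

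Genes that hold eIF4E back were not called. Of the 4, 0 fell and 0 rose in edgeR, 0 had an unadjusted p under 0.05, and the median log2 fold change was -0.006. EIF4EBP1, which blocks eIF4E until it is phosphorylated by mTOR, was at 17.8, 19.7 and 16.5 CPM in DMSO and at 16.7, 17.6 and 17.2 CPM in BPAF. These groups overlapped, with a log2 fold change of -0.07 ± 0.08 and an adjusted p of 0.702 in edgeR. EIF4EBP2 had a log2 fold change of 0.05, EIF4EBP3 one of -0.05, and EIF4ENIF1, which carries eIF4E into the nucleus, one of 0.04.

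Both subunit joining factors lay slightly lower without passing the test. EIF6, which keeps the large ribosomal subunit from joining too early, was at 118.4, 122.9 and 128.2 CPM in DMSO and at 115.7, 115.3 and 114.0 CPM in BPAF (log2 fold change -0.10 ± 0.04, adjusted p = 0.123 in edgeR). EIF5B, the GTPase that joins the subunits, had a log2 fold change of -0.05 (adjusted p = 0.330 in edgeR). The groups did not overlap for either gene.

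EIF5A, the hypusine-bearing factor that helps the ribosome through difficult peptide bonds, was at 823, 806 and 839 CPM in DMSO and at 814, 841 and 802 CPM in BPAF, so the groups overlapped. Its log2 fold change was -0.0068 ± 0.03 (adjusted p = 0.939 in edgeR) and took the opposite sign in other settings. The copy EIF5AL1 was at 28.4 ± 1.76 CPM in DMSO and 25.4 ± 0.81 CPM in BPAF (adjusted p = 0.152 in edgeR). Reads of the copies may be shared, and the sum of both was 851 ± 15.3 CPM and 844 ± 20.4 CPM, with overlap.

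The elongation factors had the lowest median of the groups, -0.17 on the log2 scale, with 3 of 7 genes called lower and all 7 below 0. Of all tested genes, 3.4% were called lower and 49.2% had a log2 fold change below 0. The median of the elongation factors depends on the genes counted. The 7 include EEF1A2, near 1 CPM at -0.35 ± 0.33 (SE), and EEF1E1, which sits in the complex of tRNA synthetases. EEF2, EEF1G and EEF1D lay nearer 0, at -0.075, -0.070 and -0.00077. EEF1A1, which brings aminoacyl tRNA to the ribosome (ENSG00000156508, chromosome 6, 73515750 to 73523797), was by far the most abundant factor at 7571 TPM in DMSO. It was at 9030, 8826 and 9259 CPM in DMSO and at 7982, 8221 and 7839 CPM in BPAF. All BPAF libraries lay below the lowest control, and the log2 fold change was -0.17 ± 0.03 (SE, adjusted p = 0.00177 in edgeR). The table names 49 copies of this gene, which together held 0.0959% of its counts.

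EEF1B2, a subunit of the complex that reloads eEF1A with GTP (ENSG00000114942, chromosome 2, 206159585 to 206162928), was at 452, 460 and 521 CPM in DMSO and at 399, 413 and 399 CPM in BPAF. DMSO replicate 3 was the highest library, and every BPAF library lay below every control. The log2 fold change was -0.24 ± 0.05 (SE, adjusted p = 0.0220 in edgeR). The other subunits of that exchange complex did not pass: EEF1G was at 1444, 1361 and 1439 CPM in DMSO and at 1337, 1359 and 1347 CPM in BPAF (log2 fold change -0.07, adjusted p = 0.169 in edgeR), and EEF1D was at 355 CPM in both groups (log2 fold change -0.00077). The ratio of EEF1B2 to EEF1D, chosen after the values were seen, was 1.34 ± 0.06 in DMSO and 1.14 ± 0.01 in BPAF on the CPM scale. It was 2.14 ± 0.08 and 1.92 ± 0.02 on the TPM scale, and neither overlapped (SD, n = 3, exact permutation p = 0.1 for each, two-sided, the least that can be reached).

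EEF1E1, a small relative of these subunits that sits in the complex of tRNA synthetases (ENSG00000124802, chromosome 6, 8073360 to 8102578), was at 58.4, 52.4 and 62.9 CPM in DMSO and at 51.3, 50.5 and 48.3 CPM in BPAF. The control group was wide and its lowest library stood close to the highest BPAF library. The log2 fold change was -0.21 ± 0.06 (SE, adjusted p = 0.0362 in edgeR). The call was lost with upper quartile scaling (adjusted p = 0.0510 in edgeR), in limma-voom (0.0642) and in DESeq2 without its own filter (0.0643). Together with the read-through gene EEF1E1-BLOC1S5 the level was 60.6 ± 5.25 CPM in DMSO and 52.4 ± 2.47 CPM in BPAF, and these sums overlapped. EEF2, which moves the ribosome along the messenger, was at 1980, 1970 and 1887 CPM in DMSO and at 1840, 1913 and 1787 CPM in BPAF (log2 fold change -0.08, adjusted p = 0.163 in edgeR). Its groups overlapped through DMSO replicate 3 and BPAF replicate 2. EEF1A2, the neuronal and muscle form of eEF1A, was near 1 CPM (adjusted p = 0.622 in edgeR).

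**Figure D3:**
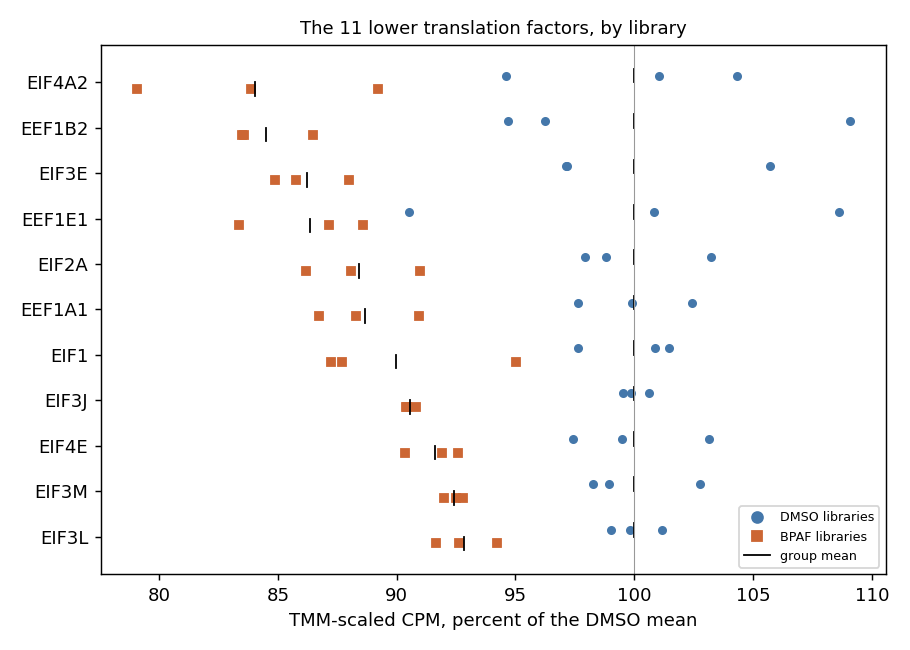
TMM-scaled CPM of the 11 called factors in each library as percent of the DMSO mean (x axis), with circles for the 3 DMSO libraries, squares for the 3 BPAF libraries and a black bar for each group mean. In every gene the squares lie left of the circles, by the narrowest gap in EEF1E1, and the DMSO libraries of EEF1B2 and EEF1E1 are the most spread.

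The enzymes that modify elongation factors showed no calls. Of 6 genes, 0 passed in edgeR, 0 had an unadjusted p under 0.05, and the median log2 fold change was 0.024. EEF2KMT, a methyltransferase of eEF2, was at 34.0, 34.0 and 36.4 CPM in DMSO and at 35.5, 36.1 and 32.0 CPM in BPAF, with overlap (log2 fold change -0.01, adjusted p = 0.955 in edgeR). EEF2K, the kinase that stops eEF2, had a log2 fold change of 0.05 with overlapping groups.

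Summed over all 64 genes, the factors took 2.68%, 2.65% and 2.67% of the counts in the DMSO libraries and 2.54%, 2.59% and 2.53% in the BPAF libraries. The groups did not overlap (exact permutation p = 0.1, two-sided, the smallest that 3 against 3 allows). EEF1A1 alone went from 0.892 ± 0.016% to 0.810 ± 0.016% of counts (SD, n = 3), and the other 63 genes from 1.78 ± 0.01% to 1.74 ± 0.01%. In TPM, where each gene is scaled for its length, the share of the factors was 2.32 ± 0.02% in DMSO and 2.30 ± 0.01% in BPAF, and the groups overlapped (exact permutation p = 0.3).

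In the deposited TPM most genes lay higher with BPAF, with a median difference of 0.0775 in mean log2(TPM + 1) over all tested genes and 0.054 over the 62 factors. Limma on this scale called 0 factors and 1 of all 15490 genes. Before adjustment, 4 of the 62 had a p under 0.05 with a lower TPM and 13 with a higher TPM. The backgrounds were 2.36% lower (366 genes) and 15.1% higher (2333 genes). The lean towards higher TPM was thus shared with all tested genes and was not particular to the factors. Of the 11 called factors, 9 had a TPM difference below 0, EIF1 (0.0088) and EIF4E (0.027) lay above 0, and all 11 lay below the median of all genes, as did 37 of the 62. The TPM libraries of BPAF were all below those of DMSO for 4 factors, EIF3E, EEF1A1, EIF2A and EEF1B2, and all above for 16, with backgrounds of 3.5% and 21%. EEF1A1 was at 7134 TPM in BPAF, EIF3E went from 445 to 407 TPM, EEF1B2 from 1145 to 1019 TPM and EIF2A from 125 to 116 TPM (means of 3 libraries). EIF2S1 and EIF5A, lower by count, were higher in TPM, at 231 and 257 TPM for the former and at 1139 and 1235 TPM for the latter.

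**Figure D4:**
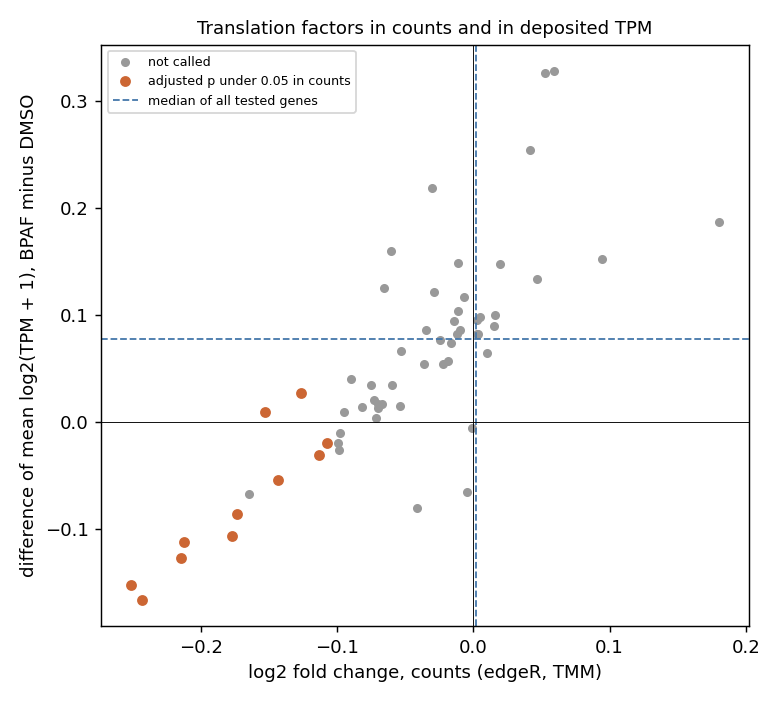
Log2 fold change from counts (x axis, edgeR with TMM) against the difference in mean log2(TPM + 1) between BPAF and DMSO (y axis) for 60 tested factors, with orange for the 11 called in counts and dashed lines at the median of all tested genes. All orange points lie below the dashed horizontal line at 0.0775, and 9 of them lie below 0 on both axes.

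The number of calls depended on single libraries. It was 3 when BPAF replicate 1 was left out, 4 when BPAF replicate 3 was, and 5 when DMSO replicate 1 was, where the share of all tested genes called lower was 1.11%, 1.44% and 1.7%. Leaving out DMSO replicate 3 or BPAF replicate 2 gave 8 each and leaving out DMSO replicate 2 gave 9, with backgrounds of 2.22%, 2.42% and 3.4%. Calls over all genes thus dropped in the same fits, from 527 lower to 175, 227 and 270 in the first 3. All 11 genes kept a log2 fold change below 0 in each fit. EIF3E, EEF1A1 and EIF2A passed in all 6 fits, with a highest adjusted p of 0.0145, 0.0324 and 0.0447 in edgeR. EIF4A2 passed in 4, EIF1, EIF3J, EEF1B2 and EIF3M in 3, EIF3L in 2, EEF1E1 in 1 (without DMSO replicate 2) and EIF4E in 0. An offset for length and GC content of each gene, fitted over all genes, gave 16 lower factors, which included 10 of the 11 and not EIF4A2 (log2 fold change -0.24, adjusted p = 0.0679 in edgeR). With that offset 6.63% of all genes were called lower and 2.02% higher. Upper quartile scaling called 9 factors lower (background 2.58% lower and 2.98% higher), protein-coding genes alone 10 (3.13% and 2.27%), limma-voom 9 (2.94% and 2.05%) and DESeq2 without its own filter 9 (2.41% and 1.66%), with 0 factors higher in each.

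The called factors had a lower GC content than the others. In the longest transcript of each gene their median GC content was 39.0%, against 47.9% for the 35 factors of the same abundance range that were not called and 48.4% for all tested genes with an annotation. Their median exon length was 4296 bases, against 5341 for those 35. They were also more abundant, with a median of 422 TPM against 206 TPM for those 35 and 13.5 TPM for all tested genes with an annotation. Across the 46 factors of that range, Spearman's rho between log2 fold change and GC content was 0.38, against 0.16 across 15122 genes, as a description over genes that share the same 6 libraries. Between log2 fold change and TPM, rho was -0.32 across those 46 and -0.30 across the 15122. The part of GC content in the falls was not tested beyond the offset above. Of the 11, EIF2A and EIF3J had whole numbers as deposited counts in all 6 libraries. The other 9 had fractional counts in some or all libraries, with EEF1A1, EEF1E1, EIF3E and EIF3L fractional in all 6. The sources used here do not say how the fractions arose. Summing each gene with its copies kept the count at 11.

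Pyrimidine tracts were then counted at the annotated starts. The pattern searched was a C at the first base followed by at least 4 bases that are each C or T, on the transcribed strand only, a form chosen after the values were seen. It was found in 4.07% of the 35116 RefSeq promoter windows, and in 7.41% of the tested genes with a window that are not factors. Of the 49 tested factors with a window, 12 held it (24.5%), 5 of which were called lower, with a median log2 fold change of -0.079 and a median level of 307 TPM. The other 37 held 4 of the calls, with a median of -0.028 and a median level of 84.1 TPM. EIF3E and EIF3L, which also fell, had no window and are in no count of tracts. Among other tested genes, 785 held the pattern, of which 7.52% were called lower, and 9810 did not, of which 3.70% were called lower. Without ribosomal protein genes these shares were 4.89% and 3.61%.

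A different rule, used for the capitals above, a run of at least 5 pyrimidines that begins within 5 bases of the start, was met by 22.4% of all windows and by 19 of the 49 factors. Those 19 are 38.8% of the factors, where 29.8% of other tested genes with a window met the rule. This rule does not contain the first pattern: EIF2S3, whose run begins further upstream, met the first and not the second. Of these 19, 6 were called lower, against 3 of the other 30, and the medians were -0.06 and -0.03. Among other tested genes the shares called lower were close, 4.59% with such a run and 3.72% without it. Without ribosomal protein genes they were 3.99% and 3.58%. The other 13 of the 19 were not called, among them EEF2, EIF3D, EIF3F and EIF4B shown above, and their log2 fold changes ran from -0.082 (EIF3D) to 0.053 (EEF2K). With the first pattern, 7 of 12 were not called. EIF1, EEF1E1 and EIF4E fell with neither form. Of 9 factors known from general knowledge to have such messengers, EEF1A1, EEF1B2 and EIF3E fell, 8 were below 0 and the median was -0.075. On that list EEF1D, EIF3E and EIF3H had no window, and EEF1G met neither rule at its annotated start. Over all tested genes, 3.4% were called lower and 49.2% lay below 0. At or above 54.0 CPM, 8.76% of tested genes were called lower and their median was -0.022. The annotated starts may differ from those used in Jurkat cells, which were not measured, and factors with a tract were more abundant than those without, so that tract and abundance cannot be told apart here.

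**Figure D5:**
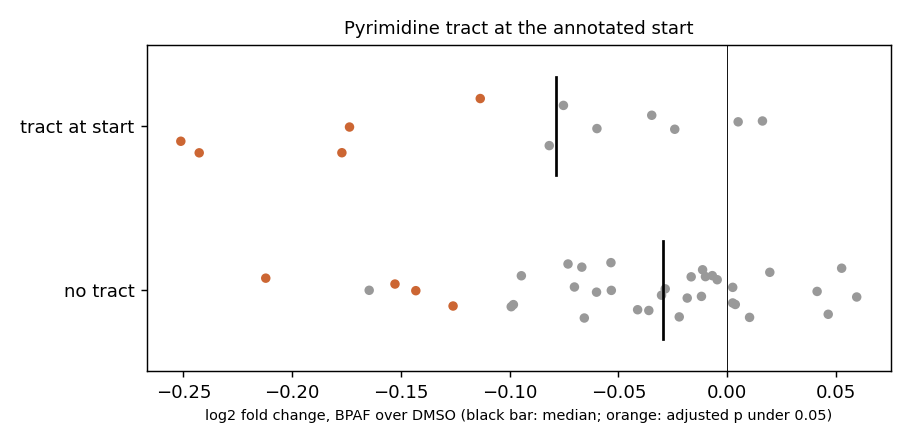
Log2 fold change of BPAF over DMSO (x axis) for 48 tested factors with a RefSeq start and at least 2 CPM, split by a C and at least 4 further pyrimidines at the first base, with orange for an adjusted p under 0.05 and a black bar at the median. The 12 factors with a tract have a median of -0.079 and hold 5 orange points, and the 36 without it have a median of -0.029 and hold 4.

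The machinery around the factors was examined in 58 other translation genes, of which 57 were tested: kinases and phosphatases of eIF2, mTOR and cap signalling, poly(A) binding and scanning cofactors, hypusine and diphthamide synthesis, and termination and rescue. Of these 57, 3 fell and 0 rose, where the background was 3.4% lower, with a median log2 fold change of -0.022. PPP1R15A, which directs the phosphatase that restores eIF2, was at 21.5, 22.2 and 24.4 CPM in DMSO and at 17.9, 18.6 and 18.4 CPM in BPAF (log2 fold change -0.31 ± 0.07, adjusted p = 0.0165 in edgeR). HBS1L, which rescues stalled ribosomes, went from 133.6 ± 2.69 to 120.5 ± 1.62 CPM (log2 fold change -0.15 ± 0.03, adjusted p = 0.0127 in edgeR). DPH5, an enzyme of the diphthamide residue of eEF2, went from 44.3 ± 0.99 to 38.4 ± 1.19 CPM (log2 fold change -0.21 ± 0.05, adjusted p = 0.0218 in edgeR). HBS1L passed in all 6 fits with a library left out. PPP1R15A did not pass when DMSO replicate 3 or either of BPAF replicates 1 and 3 was left out (adjusted p in edgeR from 0.0590 to 0.0827). DPH5 did not pass when replicate 1 or 3 of either group was left out (0.0539 to 0.122) or in DESeq2 (0.0510, or 0.0657 without its filter), and its log2 difference in TPM was 0.017. The groups did not overlap for any of these genes. The 4 kinases of eIF2 had log2 fold changes from -0.02 (EIF2AK1) to 0.05 (EIF2AK3), all with overlapping groups. Of the 16 genes of mTOR and cap signalling, 0 were called, 9 lay below 0 and 7 above, with a median of -0.014. MTOR, which controls translation of tract-bearing messengers, was at 171, 176 and 173 CPM in DMSO and at 186, 186 and 182 CPM in BPAF (log2 fold change 0.09, adjusted p = 0.0847 in edgeR). TSC1 also lay higher without overlap (0.11, adjusted p = 0.0863 in edgeR). RHEB lay lower without overlap (-0.11, adjusted p = 0.124 in edgeR). Signalling through mTOR was not tested.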

How the data were processed

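Messenger RNA of 6 Jurkat libraries was selected with oligo(dT) beads, made into stranded paired-end libraries and read on an Illumina NovaSeq instrument, per the labels' protocols. Per the submitters' processing notes, the tools were featureCounts, HISAT2, cutadapt and FastQC and the builds GRCh38 and hg38. The authors deposited estimated counts per gene, with decimals, and TPM values per gene, and the sources used here do not say how the decimals and the TPM were made.

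Counts were rounded, low genes were removed by filterByExpr, and TMM-scaled counts were tested in edgeR 4.0.16 (R 4.3.3, robust quasi-likelihood test, 15490 genes, Benjamini-Hochberg, threshold 0.05, no covariate). The biological coefficient of variation was 3.77%. The SE is the log2 fold change divided by the square root of F. Single values were compared with exact permutation tests in Python 3.11.15 with scipy 1.17.1. GENCODE 29 supplied gene types, coordinates, lengths and GC content (97.6% of tested genes). Values are given for every called factor, those with the 10 smallest p and the most abundant of each role, and other factors where a group's account needs them. The methyltransferase EEF1AKNMT was not matched by the files' symbols. Members and lists were chosen with earlier results of these data known. The edgeR fit with its main settings was tested on simulated counts, and the alternatives were not. Alternatives were other scalings, filters, DESeq2 1.42.0, limma 3.58.1 on counts (voom) and on log2 TPM plus 1 or 0.1, a replicate block, each library left out, protein-coding genes only, a length and GC offset and sums over copies.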

Additional observations from a re-analysis of the deposited data

How the results depend on the processing

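Of the settings tried, size factors, no filter, at least 10 counts in 3 libraries and sums over copies gave 11 lower factors, DESeq2 and protein-coding genes only 10, upper quartile scaling, limma-voom and DESeq2 without its filter 9, and the length and GC offset 16, with 0 called higher in each. Limma on log2(TPM + 1) and on log2(TPM + 0.1) called 0 and 0. Leaving out 1 library gave 3 to 9, where all genes called lower numbered 175 to 541. The share of lower among all calls was 56.2% with TMM, 46.5% with upper quartile scaling and 76.6% with the offset (1003 lower and 306 higher, against 527 and 411), whose median over all genes was -0.028. The replicate numbers did not pair the samples: deviations of same-numbered libraries correlated at 0.0010, -0.043 and 0.014, and 1 of 6 libraries correlated best with its own number. With the replicate number as a block, 10 factors were lower, EEF1E1 having lost its call, and the other results kept theirs. Other translation genes called lower numbered 6 with the offset, 0 and 0 with TPM and 1 to 5 with a library left out, and 1 was called higher with protein-coding genes only and 0 to 1 with a library left out.

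Median log2 fold changes over all tested factors were -0.028 with upper quartile scaling, -0.027 with protein-coding genes only, -0.065 with the offset, 0.054 and 0.054 with TPM plus 1 and plus 0.1, and -0.056 to -0.033 with a library left out. With TPM plus 1 and plus 0.1 the medians were 0.082 and 0.083 for start codon selection, 0.084 and 0.085 for eIF2, 0.052 and 0.053 for eIF3, 0.054 and 0.054 for eIF4, 0.074 and 0.076 for the inhibitors of eIF4E, 0.020 and 0.020 for subunit joining, -0.086 and -0.086 for elongation, 0.15 and 0.16 for modifiers and 0.013 and 0.013 for factors with known tracts. With the offset they were -0.059 for eIF2, -0.076 for eIF3, -0.068 for eIF4, -0.074 for the inhibitors and -0.21 for elongation, and sums over copies gave -0.070 for eIF3. Leaving out 1 library gave -0.071 to -0.023 for start codon selection, -0.056 to -0.014 for eIF2, -0.059 to -0.030 for eIF4, -0.036 to 0.031 for the inhibitors and -0.14 to -0.025 for eIF5A.

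Signs reversed with TPM plus 1 and plus 0.1 for EIF1 (0.0088 and 0.0088), EIF4E (0.027 and 0.027), EIF2S1 (0.16 and 0.16), EIF4A1 (0.017 and 0.017), EIF4EBP1 (0.0040 and 0.0042), EIF5A (0.12 and 0.12) and EEF2KMT (0.15 and 0.15). They also reversed for EIF5A with upper quartile scaling (0.0040), protein-coding genes only (0.0045) and without DMSO replicate 3 (0.0052) or BPAF replicate 3 (0.0079), and for EEF2KMT with protein-coding genes only (0.00033) and without DMSO replicate 3 (0.020) or BPAF replicate 3 (0.042; -0.044 to 0.042 over the 6 fits with a library left out). The cause was not tested. The number of libraries, 3 a group, limits the precision of differences this small.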
